A study of Rattus norvegicus with 6 samples.

Results

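miR-221 and miR-222 are microRNAs (miRNAs) made from neighbouring genes, and each hairpin precursor can yield a 5p arm and a 3p arm. The 4 arms (rno-miR-221-5p, rno-miR-221-3p, rno-miR-222-5p and rno-miR-222-3p, with the rat prefix left out below) were taken by name from the 719 rat miRNAs on the array, and all 4 had probes there. Both 3p arms were well above background on every array, while neither 5p arm was on any, so 2 of the 4 entered the test with 165 other miRNAs. The samples were cultures of rat primary skeletal muscle cells (RSkMC), isolated from the limb muscle of newborn rats and bought as frozen second-passage cells. All had been switched to 2% horse serum and were collected on day 11 of differentiation. One group had received recombinant interleukin-8 (IL-8), a chemokine best known for recruiting neutrophils, throughout at 1 ng/ml (n = 3 samples), and the other was left untreated (control, n = 3 samples). The labels' growth protocol mentions IL-8 for all samples alike, and the groups follow the titles and the agent label. Each sample had 1 array, and the IL-8 arrays shared a slide that held no control array, so the effect of slide cannot be told apart from that of IL-8 in anything below. The labels do not say that the samples of a group were separate cultures, so p-values measure only the spread among these arrays, and that spread may be technical.

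The 3p arms of miR-221 and miR-222 are the usual guide strands. A miRNA pairs with its targets mainly through its seed, the stretch from base 2 to base 8, and the 3p arms have the same seed. In human tumour cells both repress p27 (Cdkn1b), an inhibitor of cyclin-dependent kinases that holds cells out of the cycle. In quail and mouse myoblasts their level falls as the cells leave the cycle and fuse, and raising them delays differentiation.

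The mature sequences are shown because the shared seed defines the pair and the probes pair mainly with the rest of each arm. They are RefSeq's for build GRCr8, written 5′ to 3′ with the seed in capitals.
miR-221-3p: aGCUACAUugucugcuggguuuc
miR-222-3p: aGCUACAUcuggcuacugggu
miR-221-5p: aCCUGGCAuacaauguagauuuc
miR-222-5p: gGCUCAGUagccaguguagau
The 3p arms are identical over their first 8 bases and then differ in part. Compared position by position without a shift, they have the same letter at 11 of 21 positions. No other of the 693 rat mature miRNAs in the RefSeq set had the seed of either 3p arm, nor did any other name have the seed of a 5p arm. The 5p arms do not share a seed with each other.

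Both genes lie on the plus strand of chromosome X, Mir222 at chrX:6022621-6022723 and Mir221 at chrX:6023182-6023290 in GRCr8, with 458 bases between the hairpins. The hairpins are given with both mature arms in capitals, since they show where the unmeasured 5p arms sit.
Mir222: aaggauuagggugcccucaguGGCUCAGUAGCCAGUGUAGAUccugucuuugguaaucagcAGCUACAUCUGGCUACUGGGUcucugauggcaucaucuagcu
Mir221: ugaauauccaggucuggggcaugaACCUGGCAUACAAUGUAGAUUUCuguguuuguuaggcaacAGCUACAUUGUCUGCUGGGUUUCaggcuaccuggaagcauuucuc
The array files place the probes on chromosome X of the older build rn4, where the 3′ ends of the 3p arms are 566 bases apart, the same distance as in GRCr8.

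Each arm was read by a pair of DNA probes that differ by 1 letter at one end, each printed in 10 spots per array. The longer probe of each 3p arm is given with the letters that pair with seed bases in capitals.
miR-221-3p probe: gaaacccagcagacaATGTA
miR-222-3p probe: acccagtagccagA
The probe of miR-221-3p pairs with bases 4 to 23 and covers 5 of the seed bases, whereas that of miR-222-3p pairs with bases 8 to 21 and covers 1. The probes therefore pair mainly with bases past the shared seed. At the best ungapped placement on miR-221-3p, the 14-letter probe of miR-222-3p had 4 mismatches and its 13-letter partner had 3. The 14-letter probe came closer to miR-344a-5p, with 3 mismatches, and the 13-letter probe as close to miR-216a-5p, also with 3. Whether miR-221-3p or another miRNA adds signal to these short probes was not tested.

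The 5p arms gave no measurable signal. On the linear scale, before scaling, the averages of the miR-221-5p probes ran from -4.23 to 3.66 and those of the miR-222-5p probes from -4.89 to 2.58 over the 6 arrays. The lowest signal that the software called well above background on an array was 12.3 to 17.1. None of the 120 spots of either arm was called well above background, and no average exceeded the 95th percentile of the 434 negative control spots of its array. No change with IL-8 could therefore be measured for these arms, and a level below the array's reach is not excluded. The highest averages of both arms came from IL-8 replicate 1, still below 4 units.

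**Figure D1:**
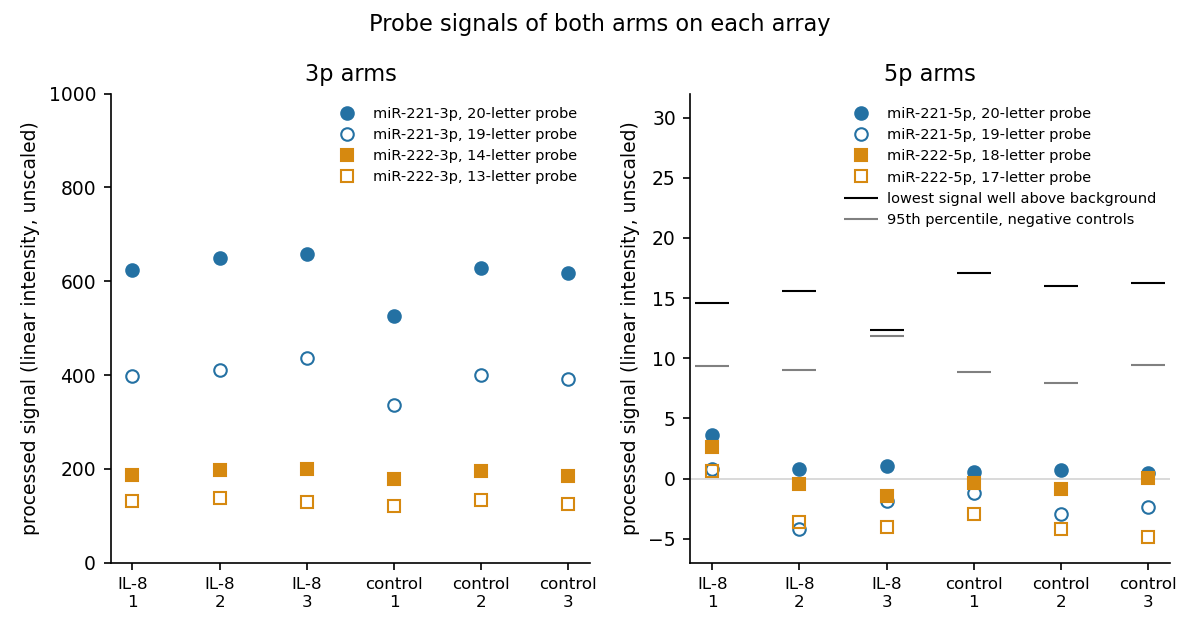
Processed probe signal in linear intensity units before scaling (y axis) on the 3 IL-8 and 3 control arrays (x axis), with the 3p arms on the left and the 5p arms on the right on a finer axis. Points are averages over a probe's spots, and dashes mark each array's lowest signal well above background and its 95th percentile of negative controls. All 3p probes lie between 121 and 658 units and all 5p probes between -4.89 and 3.66, under both marks.

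The 3p arms were read far above background, and their spots agreed closely. All 120 spots of each 3p arm were called well above background and none was saturated. The coefficient of variation between the spots of a 3p probe on an array was between 2.67% and 8.12%.

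Before scaling, signal did not separate the groups. The mean of both miR-221-3p probes was 511, 530 and 548 units in IL-8 replicates 1, 2 and 3, against 432, 514 and 504 units in control replicates 1, 2 and 3. Control replicate 1 was the lowest, and control replicate 2 lay above IL-8 replicate 1. For miR-222-3p the signal was 160, 168 and 165 units with IL-8, against 150, 165 and 155 units in control, and the groups overlapped here too. Over the same arrays the 75th percentile of the probes well above background was higher throughout with IL-8, at 540 to 569 units against 440 to 497 units in control. IL-8 arrays also had more miRNAs well above background, 168 to 180 against 154 to 164. The part of this array-wide difference in the results was not tested. Each array was divided by that percentile, so the levels below are set against the array's other miRNAs, on a log2 scale with the percentile at 0.

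After scaling, miR-222-3p had a log2 level of -1.86, -1.73 and -1.74 in IL-8 replicates 1, 2 and 3. In control replicates 1, 2 and 3 it was -1.58, -1.56 and -1.71. The groups did not overlap at this scaling, but only just, because control replicate 3 lay within 0.1 of IL-8 replicates 2 and 3. Of 22 other settings they lay apart in 16, with IL-8 lower. They overlapped with median scaling, the percentile over all probes, quantile normalization, spike-in scaling and no scaling, and without control replicate 1. Means of the levels given above were -1.78 ± 0.07 with IL-8 and -1.61 ± 0.08 in control (SD, n = 3 each). The log2 change was -0.16 ± 0.06 (SE), a level with IL-8 of 0.894-fold that of control (95% CI 0.805 to 0.993). The unadjusted limma p was under 0.05, but the change did not pass the test after Benjamini-Hochberg adjustment over 167 miRNAs (limma adjusted p = 0.188), and its sign turned with spike-in scaling and with none. Groups without overlap were seen for 50 of the 167 miRNAs (29.9%), 23 of them lower with IL-8 (13.8%), and an unadjusted limma p under 0.05 for 41 (24.6%), 18 of them lower (10.8%), so neither sets miR-222-3p apart.

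miR-221-3p had a log2 level of -0.19, -0.09 and -0.01 in IL-8 replicates 1, 2 and 3, against -0.06, 0.08 and -0.02 in control replicates 1, 2 and 3. IL-8 replicate 1 was the lowest and control replicate 2 the highest, and the other 4 arrays were mixed. Means were -0.10 ± 0.09 with IL-8 and 0.00 ± 0.07 in control (SD, n = 3 each). The log2 change was -0.10 ± 0.07 (SE), or 0.935-fold (95% CI 0.839 to 1.04), with limma adjusted p = 0.472. The change was -0.05 when either IL-8 replicate 1 or control replicate 2 was left out, which shows how far a single array carries it. Its sign too turned with spike-in scaling and with none. Over 22 other settings its groups did not overlap in 2 with IL-8 lower, among them quantile normalization. They did not overlap in 1 with IL-8 higher, which was spike-in scaling.

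**Figure D2:**
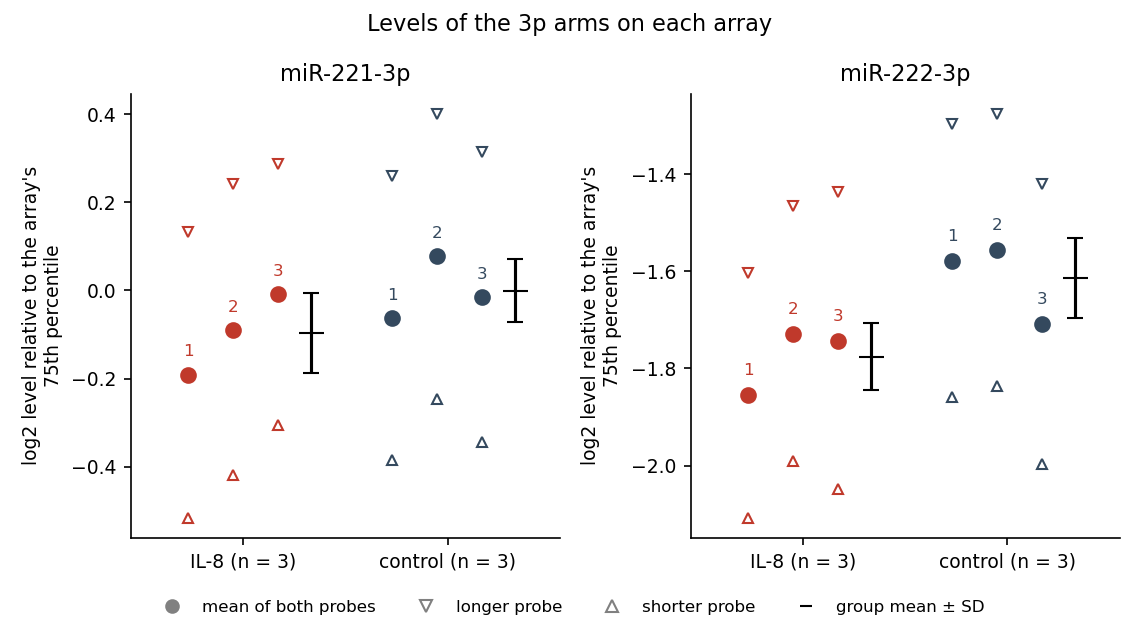
Log2 level relative to the array's 75th percentile (y axis) of miR-221-3p (left) and miR-222-3p (right) on the IL-8 and control arrays (x axis, replicate numbers beside the points). Filled points are the mean of both probes, open triangles the single probes, and bars the group mean ± SD. The groups overlap for miR-221-3p and lie apart by little for miR-222-3p, where control replicate 3 at -1.71 sits next to IL-8 replicate 2 at -1.73.

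Of the 2 tested arms 0 passed the threshold, while 10 of the 167 tested miRNAs (5.99%) did, 5 higher (2.99%) and 5 lower (2.99%) with IL-8. In the order of log2 change from the lowest, miR-222-3p was 18th and miR-221-3p 32nd of the 167, and over all 94 were higher and 73 lower, with a median of 0.016. The interval of miR-222-3p leaves room for levels between 0.805-fold and 0.993-fold, and that of miR-221-3p between 0.839-fold and 1.04-fold. Missing the threshold does not show that the level was the same in both groups.

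**Figure D3:**
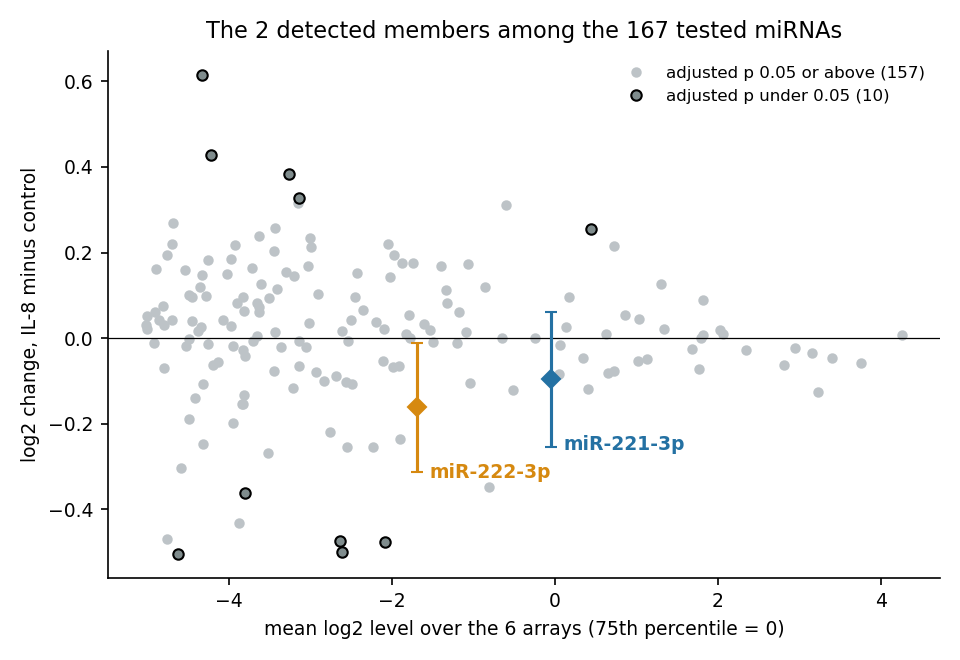
Log2 change, IL-8 minus control (y axis), against the mean log2 level over the 6 arrays (x axis) for the 167 tested miRNAs, with those at adjusted p under 0.05 ringed. Diamonds with 95% intervals are miR-221-3p at -0.10 and miR-222-3p at -0.16, both within the spread of miRNAs that did not pass, and both of opposite sign without scaling.

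The probes of an arm gave like values, and since the shorter lies within the longer they are not independent. In a fit over 300 probes the log2 changes were -0.15 ± 0.06 and -0.17 ± 0.07 (SE) for the 13-letter and 14-letter probes of miR-222-3p, each with an unadjusted limma p under 0.05 and adjusted p = 0.231 and 0.215. Groups did not overlap for the 14-letter probe and did for the 13-letter probe. Shares over the 300 probes are not given. Over the 167 miRNAs, groups without overlap were seen for 29.9% and an unadjusted limma p under 0.05 for 24.6%. For miR-221-3p the changes were -0.09 ± 0.07 and -0.10 ± 0.06 (SE) at 19 and 20 letters, with limma adjusted p = 0.540 and 0.376.

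The size of the change was compared between the neighbours within each array, where the scaling factor cancels. The log2 level of miR-222-3p minus that of miR-221-3p was -1.66, -1.64 and -1.73 in IL-8 replicates 1, 2 and 3, against -1.52, -1.63 and -1.69 in control replicates 1, 2 and 3. Only control replicate 1 stood off from the rest. The group means of this quantity were -1.68 ± 0.05 with IL-8 and -1.61 ± 0.09 in control (SD, n = 3 each), a difference in change of -0.07. In a two-sided exact permutation test over the 20 splits of the arrays p was 0.4, but 0.10 is the smallest p this test can give with 3 arrays against 3, so it could not reach 0.05 and settles nothing either way. Without control replicate 1 the difference was -0.02.

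Over the 6 arrays the levels of the arms were correlated, with Pearson r = 0.75, as a description of 6 points that share their array, scaling and group difference. By this measure 8 of the 166 other miRNAs were more like miR-222-3p than miR-221-3p was, and the median r over all others was -0.22. Those most like miR-222-3p were miR-290 (r = 0.92), miR-31a-5p (0.91), miR-99b-5p (0.90), miR-24-3p (0.88) and miR-3593-3p (0.83). Those most like miR-221-3p were miR-31a-5p (0.90), miR-99a-5p (0.87), miR-24-3p (0.84), miR-425-5p (0.83) and miR-22-3p (0.82). miR-31a-5p, which represses Myf5 in mouse satellite cells, and miR-24-3p stood in both lists. None of these miRNAs passed the limma test, and miR-290 came closest (log2 change -0.24, adjusted p = 0.0531).

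On chromosome X, the array files placed 69 further miRNAs, of which 10 were tested and 0 within 50 kb of the pair. miRNAs with a probe placed elsewhere, at several positions or at none were not counted. By limma 0 of the 10 passed, beside 10 of 167 over all tested. An unadjusted limma p under 0.05 was seen for 2 of the 10, miR-188-5p and miR-361-5p, beside 41 of 167 over all tested. Of the 10, 2 were higher and 8 lower with IL-8, beside 94 and 73 of the 167, with a median log2 change of -0.10 against 0.016 over all tested. The 10 include both arms of miR-652 and of miR-322, so they are not 10 separate loci. With the normexp background 3 of the 10 passed as lower, beside 23 of 167 over all tested. Without scaling 2 of the 10 passed as higher, beside 50 of 167. The median turned above 0 without scaling, with spike-in scaling and without control replicate 3. The nearest tested were miR-188-5p at 12388 kb, with a change of -0.47 (limma adjusted p = 0.0706), miR-500-3p at 12399 kb with -0.13, and miR-652-5p at 20886 kb with -0.02. For miR-188-5p, IL-8 replicates 2 and 3 lay at -5.03, the lowest log2 level allowed, so the size of its change depends on that limit.

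The pair was set beside miRNAs of related roles, in 4 lists whose members overlap in places and which were drawn up with earlier results of these data known. Of 13 miRNAs linked to proliferation, among them members of the miR-17 cluster and its relatives, 11 were tested (8 higher, 3 lower, median log2 change 0.029). By limma 0 passed in either direction, nor did any have an unadjusted p under 0.05. Over all 167 tested, 10 passed, 41 had an unadjusted limma p under 0.05, and 94 were higher and 73 lower. Without scaling 4 of the 11 passed as higher, where 51 of 167 miRNAs passed in all. The smallest p in the list was that of miR-31a-5p, at 0.35 ± 0.06 with IL-8 and 0.47 ± 0.06 in control (log2 level, SD, n = 3 each), with limma adjusted p = 0.282. miR-25-3p, of the cluster with miR-93 and miR-106b, had a log2 change of 0.06 ± 0.05 (SE). That of miR-20b-5p was 0.07 ± 0.06 (SE).

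Of 6 other miRNAs described to fall in or to hold back myoblast differentiation, 5 were tested (1 higher, 4 lower, median -0.034). By limma 0 of the 5 passed, beside 10 of 167 over all tested. Without scaling and with spike-in scaling 1 of the 5 passed as higher, where 51 and 31 of 167 miRNAs passed in all. As reported, 1 of the 5 had an unadjusted limma p under 0.05, beside 41 of 167 over all tested. miR-31a-5p is in this list too. The one at that unadjusted p was miR-487b-3p, whose log2 change of 0.15 ± 0.05 (SE) was, at this scaling, opposite in sign to both arms. For miR-23a-3p, which targets myosin heavy chain transcripts in mouse, the change was -0.03 ± 0.05 (SE).

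Of 21 miRNAs described to promote differentiation or to restrain the cell cycle, 13 were tested (9 higher, 4 lower, median 0.021). By limma 1 rose and 0 fell, beside 5 higher and 5 lower of 167 over all tested. An unadjusted limma p under 0.05 was seen for 4 of the 13, beside 41 of 167 over all tested. Without scaling and with spike-in scaling 4 of the 13 passed as higher and 0 as lower, where 51 and 31 of 167 miRNAs passed in all. Of the 13, 2 passed as lower with median scaling, normexp and array weights, beside 10, 23 and 11 of 167 over all tested. In these settings 1, 1 and 2 of the 13 passed as higher, beside 5, 1 and 17 of 167. The one that rose was miR-181a-5p, which restrains Hoxa11 in mouse myoblasts, at a log2 level of 0.57 ± 0.04 with IL-8 and 0.31 ± 0.05 in control (SD, n = 3 each; limma adjusted p = 0.0315). The call was lost when any 1 array except control replicate 3 was left out, and also with total gene signal, no filter and the percentile over all probes. miR-34c-5p and miR-34b-5p, targets of p53, had log2 changes of -0.26 ± 0.06 and -0.25 ± 0.09 (SE) with limma adjusted p = 0.0512 and 0.153.

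Of 4 other miRNAs described to target p27 in human or mouse cells, 3 were tested. By limma 1 rose and 0 fell, beside 5 higher and 5 lower of 167 over all tested. The one that rose was again miR-181a-5p, with the same losses of its call. For miR-196a-5p and miR-24-3p the log2 changes were -0.07 ± 0.06 and -0.06 ± 0.05 (SE). p27 itself and the targets of the pair were not measured on this array. The medians of these 4 lists change sign with the scaling. Without scaling all lay above 0, between 0.17 and 0.25, beside a median of 0.24 over all tested miRNAs, and with the percentile over all probes all lay below 0.

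**Figure D4:**
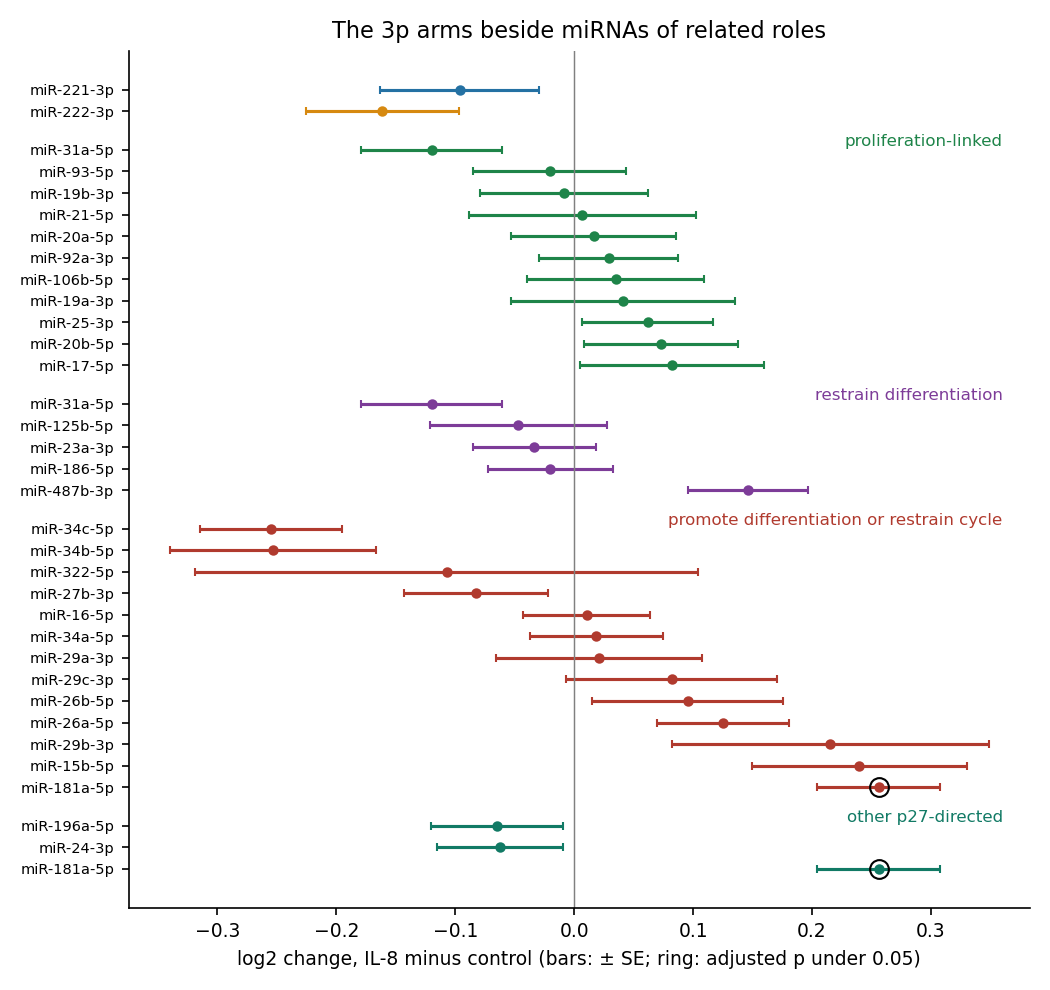
Log2 change, IL-8 minus control (x axis, bars ± SE), of miR-221-3p and miR-222-3p and of the tested members of 4 lists (y axis, n = 3 arrays a group), with adjusted p under 0.05 ringed. miR-181a-5p, drawn in both lists that hold it, is the one ringed. The proliferation-linked miRNAs lie between -0.12 and 0.08, and signs are those of the scaling described in the text.

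The labelled cell type was checked against marker miRNAs. None of 9 muscle-enriched miRNAs, which mark differentiated striated muscle (miR-499, both arms of miR-206, and the miR-208, miR-133 and miR-1 groups), was well above background on any array, and their highest signal was 9.23 units. All 6 fibroblast and smooth muscle miRNAs were detected, with a summed scaled level of 101 to 108 with IL-8 and 98.4 to 116 in control. Of the 6, 0 passed the limma test, beside 10 of 167 over all tested. None of the 6 reached an unadjusted limma p under 0.05, beside 41 of 167. The endothelial markers, both arms of miR-126a, were not detected (0 of 2), nor were the 6 blood markers. The part that the mix of cells or their stage plays in the levels of the pair was not tested. In such bulk samples fewer cells of a type and less RNA per cell cannot be told apart.

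Under 22 other settings both arms lay below the median of all tested miRNAs each time, with a log2 distance from it of -0.15 to -0.02 for miR-221-3p and of -0.26 to -0.08 for miR-222-3p. Dividing an array by another single factor shifts all its miRNAs nearly alike, and the settings of the limma test leave the levels as they are, so most of these settings could hardly move that distance. The sign was negative in 20 of the 22 settings for each arm. Without scaling the log2 change was 0.07 for miR-222-3p and 0.14 for miR-221-3p, against a median of 0.24 over all tested. With the normexp background correction miR-222-3p passed the threshold (log2 change -0.16, limma adjusted p = 0.0382), where 24 of 167 miRNAs passed and 23 of them were lower. That was the single setting of the 22 in which either arm passed, and the adjusted p of miR-222-3p ran from 0.0382 to 0.998 over them.

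**Figure D5:**
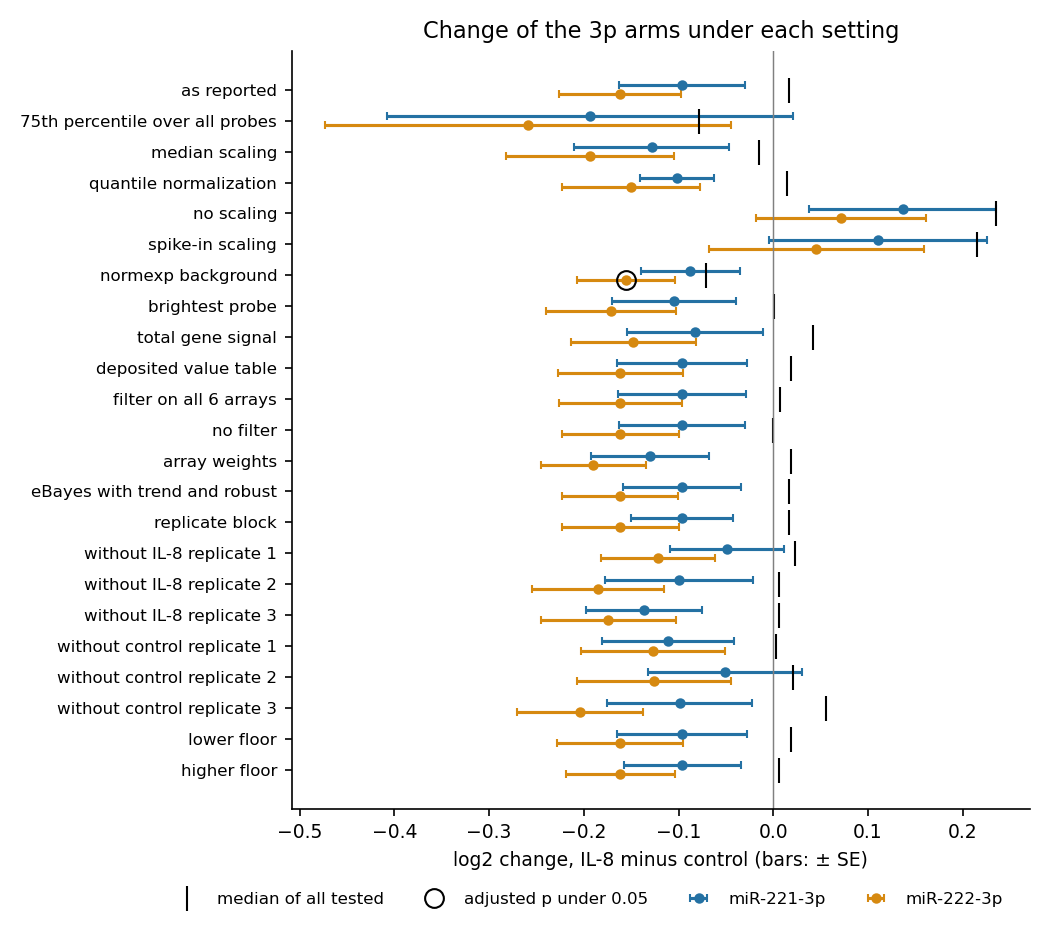
Log2 change, IL-8 minus control (x axis, bars ± SE), of miR-221-3p and miR-222-3p as reported and under 22 other settings (y axis), with the median of all tested miRNAs as a tick and adjusted p under 0.05 ringed. Both arms lie left of the tick in every row, are positive without scaling and with spike-in scaling, and miR-222-3p is ringed once, with the normexp background.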

How the data were processed

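Per the labels' protocols, Agilent spike-in miRNAs were added to total RNA before Cy3 labelling for 1-colour miRNA arrays. The values used were linear spot intensities from Agilent Feature Extraction 10.10.1.1. They were spatially detrended within each array and not normalized between arrays, per the file headers. A deposited value table equalled the software's total probe signal.

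Spots not marked as outliers were averaged per probe, and a probe counted as well above background when over 50% of its spots did. Each array was divided by the 75th percentile of the 264 probes that passed on all 6 arrays, floored at a log2 level of -5.03, the median of the arrays' lowest such signals, and logged. A miRNA was the mean of its probes passing on all 3 arrays of either group, which left 167 of 719. IL-8 was set against control with limma 3.58.1 (lmFit and eBayes, R 4.3.3) and Benjamini-Hochberg adjustment over the 167 at 0.05. Scaling in this way hides a change common to all miRNAs. The number of arrays limits the precision.

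Named are the 4 arms, list members past the threshold with up to 3 of the smallest p, the 5 most similar miRNAs and the nearest tested on chromosome X. miR-361-5p and further members are named outside this rule. Members and lists were chosen with earlier results of these data known. Alternatives covered scaling, background, probe summary, filter, floor (chosen after seeing the data), limma settings, the replicate block and leaving out each array.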

Additional observations from a re-analysis of the deposited data

How the results depend on the processing

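The log2 change of miR-221-3p was 0.14 without scaling and 0.11 with spike-in scaling, and that of miR-222-3p 0.071 and 0.045, against -0.10 and -0.16 as reported; the median of all miRNAs moved to 0.24 and 0.21 there. miR-222-3p passed with the normexp background alone (-0.16, limma adjusted p = 0.0382). With each array left out in turn, miR-221-3p ran from -0.14 to -0.05, miR-222-3p from -0.20 to -0.12 and their difference from -0.10 to -0.02, with limma adjusted p from 0.0539 for miR-222-3p. The count of miRNAs past the threshold, 10 as reported, was 0 with the percentile over all probes (9 at an unadjusted limma p under 0.05), 17 with quantile normalization, 51 without scaling, 31 with spike-in scaling, 24 with normexp, 6 with total gene signal, 1 with no filter, 28 with array weights and 1 to 29 with an array left out (29 without control replicate 3). With the replicate number as a block it was 8, and miR-221-3p and miR-222-3p stayed at -0.10 and -0.16 (limma adjusted p = 0.347 and 0.182), and miR-181a-5p did not pass with it. Deviations of same-numbered arrays correlated at 0.29, 0.33 and 0.09. Numbers 1 and 2 each correlated best with their own and number 3 did not, so the numbers were not taken as pairs. With no filter the 5p arms entered the fit at the floor, where values have no order, so no change is given for them. The causes were not tested.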
